A study of Mus musculus with 12 samples.

Results

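Receptors that hold cells in the bone marrow (BM) or let them leave were followed across 12 RNA-seq libraries of cells sorted as hematopoietic stem cells (HSCs). The 9 genes were taken by name from the 31272 gene names of the deposited tables, not by a threshold on measured values. The choice was made with earlier results of these data known, so counts of called receptors beside shares of all genes are descriptive. They are the chemokine receptors Cxcr4, Cxcr2, Ccr2 and Cx3cr1, the integrin chains Itga4 and Itgb1, the selectin ligand Selplg, the hyaluronan receptor Cd44 and the sphingosine-1-phosphate receptor S1pr1. All 9 were found on a single row each. Cxcr2, Cxcr4 and Cx3cr1 moved most among them. Post IR, Cxcr2 rose from 4.93 ± 0.577 to 18.0 ± 0.745 FPKM (mean ± SD, n = 3), Cx3cr1 fell from 2.71 ± 0.330 to 0.840 ± 0.0400 FPKM, and Cxcr4 went from 101.2 ± 8.23 to 50.9 ± 2.12 FPKM.

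HSCs are kept in the BM by several adhesive and chemotactic systems that act together. CXCR4 binds the stromal chemokine CXCL12, the integrin α4β1 (VLA-4, made of the Itga4 and Itgb1 products) binds VCAM-1 and fibronectin, and PSGL-1 (Selplg) and CD44 mediate rolling and anchoring on selectins and hyaluronan. CXCR2 binds ELR-type CXC chemokines and drives the exit of mature neutrophils from the marrow, whereas CCR2 and CX3CR1 guide monocytes, and S1PR1 guides cells toward the sphingosine-1-phosphate of blood.

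All cells came from wild-type (WT) mice and were sorted from BM as HSCs, which the study's methods define as lineage-negative, Sca-1+, c-Kit+, Flt3- and CD34- cells. Ctrl cells carry no irradiation label, IR cells were taken 3 days after ionizing radiation, given by the methods as a single total-body exposure to a cobalt source, and the groups Ab_IR and L_IR carry an added label before IR. What Ab and L stand for is not explained in the labels, so both are used as given, and the labels state neither the age of the mice nor whether the 3 libraries of a group came from separate mice. The p-values therefore measure the spread between these libraries, which may be technical.

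The values are FPKM, fragments per kilobase of transcript scaled to the size of the library, so levels of different genes are compared per length. Read counts were not used here, and sequencing depth is unknown. Between 11467 and 12167 genes reached 1 FPKM per library. Ctrl replicate 1 stood apart, with 44.1% of rows listed at 0 against 24.7% to 27.3% elsewhere. Nppa, an atrial hormone gene, split the libraries into 5 with 51.2 to 63.9 FPKM (Ctrl replicates 2 and 3 and all IR libraries) and 7 with at most 0.26 FPKM. IR can therefore be told apart from this split against Ctrl, but against Ab_IR or L_IR only through Ctrl replicate 1. The split also runs between Ctrl and the groups Ab_IR and L_IR, as only Ctrl replicate 1 lies on their side. The HSC label was only partly borne out by markers. Of 17 HSC-enriched genes, 7 stayed under 1 FPKM in all libraries, and Hoxb5 (at most 0.07 FPKM), Fgd5 (at most 0.22 FPKM) and Mecom (at most 0.25 FPKM) were close to 0, while 12 of 12 neutrophil markers reached 1 FPKM in at least 1 library. Of the genes of the sort gate, Flt3 (9.13 to 12.1 FPKM) and Cd34 (19.0 to 20.7 FPKM) were present in Ctrl although the gate is negative for both proteins, and Kit, Flt3 and Cd34 were called lower in IR, Kit reading 21.3 to 25.5 FPKM in Ctrl and 6.70 to 7.00 in IR, while Ly6a (Sca-1) read 25.9 to 41.1 and 53.7 to 61.5 FPKM. In such bulk samples, fewer cells of a type and less RNA per cell cannot be told apart.

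In Ctrl, Cxcr4 was the most abundant of the receptors, at 101.2 FPKM, above 96.2% of the 12170 genes whose Ctrl mean reached 1 FPKM. Itgb1 followed at 66.6 FPKM, then Selplg at 38.5 FPKM and Cd44 at 34.8 FPKM. Ccr2 (15.5 FPKM) and Itga4 (13.01 FPKM) lay close together, and Cxcr2, Cx3cr1 and S1pr1 (1.04 ± 0.341 FPKM) were the lowest. In IR the order changed: Itgb1, at 54.9 ± 1.01 FPKM, lay above Cxcr4, Cd44 above Selplg, and Cxcr2 above Ccr2 and Itga4. In Ab_IR and L_IR, Cxcr4 was again the highest. The plot of FPKM by library shows all 9 genes.

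**Figure D1:**
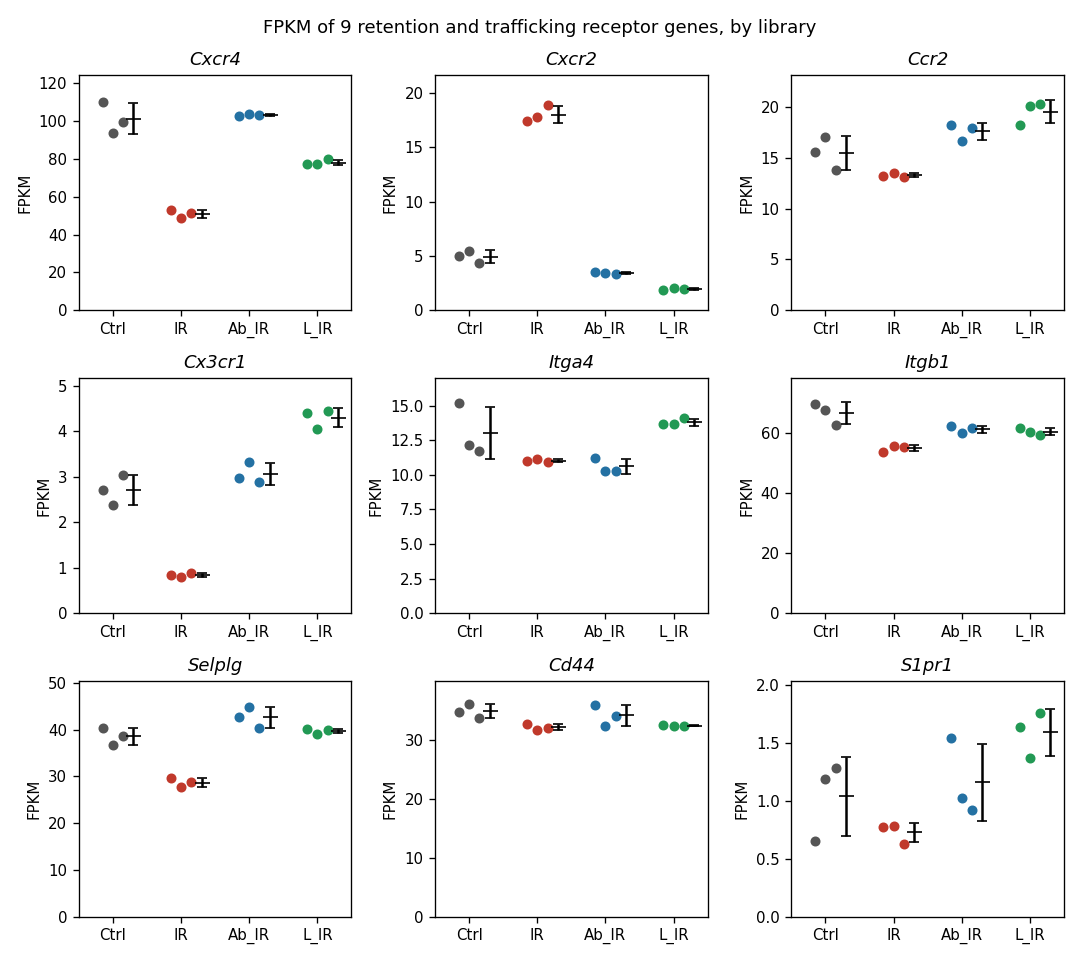
FPKM (vertical axes, each from 0) of the 9 receptor genes in each library; coloured points are the 3 libraries of Ctrl, IR, Ab_IR and L_IR, and black marks the mean ± SD. Cxcr2 sits at 17.4 to 18.9 FPKM in IR and at 5.48 FPKM or below elsewhere, Cx3cr1 at 0.88 FPKM or below in IR and at 2.38 FPKM or above elsewhere, and Cd44 is almost level.

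The start-site windows of these genes differ in base composition as well as the genes do in level. RefSeq windows of the 250 bases before the start site (build GRCm38.p6) were given for 7 of the 9 genes, without Selplg and S1pr1. Itgb1 and Cxcr4, the most abundant pair, hold 21 and 19 CpG dinucleotides, against a median of 6 and quartiles of 2 and 16 over 32851 promoters. Itga4 holds 6, Cd44 5, Cx3cr1 4, and Cxcr2 and Ccr2 1 each. The Cx3cr1 window lies wholly inside annotated exons of Cx3cr1 and the Ccr2 window has 233 of 250 bases inside those of Ccr2, so neither is a purely upstream stretch. The windows of Cxcr4, Cxcr2 and Itgb1 are shown because Cxcr4 and Cxcr2 moved in opposite directions in IR and because, with Itgb1, they span the CpG range. Capitals mark 6-base matches, searched on both strands, to the TATA box TATAAA. They also mark the GC box CCGCCC and the PU.1-type core GAGGAA. The KLF-type core CCACCC was searched in the same way. The Cxcr4 window is chr1:128592300-128592549, minus strand. The Cxcr2 window is chr1:74153744-74153988, plus strand, cut where the annotated first exon begins. The Itgb1 window is chr8:128685404-128685653, plus strand.
Cxcr4: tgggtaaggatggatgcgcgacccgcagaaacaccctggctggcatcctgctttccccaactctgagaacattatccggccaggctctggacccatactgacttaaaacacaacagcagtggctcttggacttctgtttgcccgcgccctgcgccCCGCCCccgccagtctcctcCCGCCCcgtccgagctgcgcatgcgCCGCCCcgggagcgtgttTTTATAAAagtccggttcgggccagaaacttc
Cxcr2: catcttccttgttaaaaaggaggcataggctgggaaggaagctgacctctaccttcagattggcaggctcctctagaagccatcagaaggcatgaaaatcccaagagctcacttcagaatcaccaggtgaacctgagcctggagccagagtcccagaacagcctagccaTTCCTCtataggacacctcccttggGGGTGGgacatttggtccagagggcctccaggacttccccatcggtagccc
Itgb1: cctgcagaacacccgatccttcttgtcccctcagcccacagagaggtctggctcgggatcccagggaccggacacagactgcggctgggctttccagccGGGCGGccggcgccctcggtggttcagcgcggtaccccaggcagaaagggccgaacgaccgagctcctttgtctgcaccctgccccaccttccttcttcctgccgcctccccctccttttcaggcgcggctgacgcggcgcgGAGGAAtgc

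The Cxcr4 window holds 3 GC boxes, between 95 and 45 bases before the start, and a TATA match read on both strands between positions -32 and -25. The Cxcr2 window holds neither, but a PU.1-type match at -81 to -76 and a KLF-type match at -56 to -51. Itgb1 has a GC box at -151 to -146 and a PU.1-type match at -9 to -4. Over all 32851 promoters, 32.7% hold a GC box match, 12.4% a TATA match, 23.3% a PU.1-type and 28.1% a KLF-type match, so each is common. A match describes letters in the window and not a bound site.

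For IR against Ctrl, which asks how the sorted cells differ 3 days after exposure, limma was fitted to log2(FPKM + 1) of every gene that reached 1 FPKM in 3 or more of the 6 libraries. A call required a Benjamini-Hochberg adjusted p under 0.05 and a log2 fold change beyond 1 in either direction. Of the receptors 8 passed the filter, and 1 was called higher (Cxcr2) and 1 lower (Cx3cr1, which passed the filter through Ctrl alone), where 7.60% of the 12072 genes tested were called (3.03% higher and 4.57% lower). By adjusted p alone, 5 of the 8 passed, Cxcr2 upward and Cxcr4, Cx3cr1, Itgb1 and Selplg downward, against 43.1% of all genes (17.5% upward and 25.5% downward). Each of these 8 receptors had no overlap between the IR and Ctrl libraries, which held for 58.1% of all genes. Their median log2 fold change was -0.24, beside -0.05 over all genes tested. A gene whose lower group had fewer than 3 libraries at 1 FPKM passed the filter with the help of the group in which it is high, and its call is a description. In the list counts given here for comparisons with IR, this holds for the receptor genes Ackr1, Ccr3 and Ccr10, the ligand genes Cxcl12 and Ccl7, Dpp4, Mmp14 and the lipid phosphatase gene Plpp1, and for the markers Flt3, Il5ra, Cd5l and Ly6g, the last also in Ab_IR against L_IR. The scale of log2(FPKM + 1) understates changes of low genes such as Cx3cr1.

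**Figure D2:**
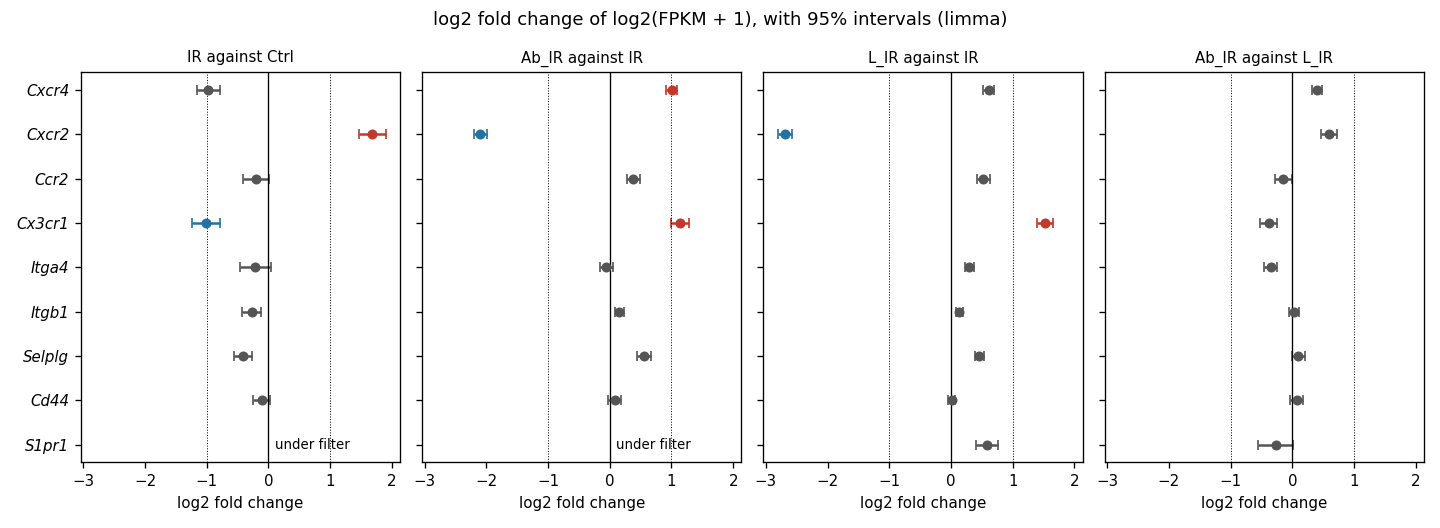
log2 fold change on the log2(FPKM + 1) scale (horizontal axes) of each receptor gene in 4 comparisons; points are limma estimates, bars their 95% intervals, dotted lines the threshold of 1 in either direction, red and blue called higher and lower. Cxcr2 is the only receptor called higher in IR (1.68) and lies at -2.10 in Ab_IR and -2.69 in L_IR against IR.

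Cxcr4 (chr1:128588199-128592293, minus strand) encodes the receptor through which CXCL12 retains HSCs in the marrow. It was listed at 110.1, 93.8 and 99.7 FPKM in Ctrl and at 52.8, 48.6 and 51.2 FPKM in IR. In Ab_IR it read 102.8, 103.7 and 103.1 FPKM, and in L_IR 77.0, 77.3 and 79.8 FPKM. The Ab_IR libraries lay within the Ctrl range, L_IR lay between Ctrl and IR, and IR overlapped with none of the other groups. Against Ctrl, IR was lower by -0.98 on the log2 scale (SE 0.078, 95% interval -1.17 to -0.79, adjusted p 2.34e-04), a ratio of means of 0.503, just short of the fold threshold. It passed that threshold without Ctrl replicate 2 (-1.03) or IR replicate 1 (-1.003) and with quantile normalization (-1.13).

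Against IR, Cxcr4 was higher in Ab_IR by 1.01 on the log2 scale (SE 0.0382, adjusted p 9.03e-07) and in L_IR by 0.61 (adjusted p 8.25e-06). The Ab_IR call stands at the threshold: it was lost without IR replicate 2 (0.98), under quantile normalization (0.99) or median ratio scaling (0.97) and with the Nppa split as a term (0.82). With that term the L_IR difference was 0.42. The split coincides with IR against both groups but for Ctrl replicate 1, on which the term rests.

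Cxcr2 (chr1:74153989-74161246, plus strand), the neutrophil receptor for ELR-type chemokines, was highest where Cxcr4 was lowest. Its libraries read 4.99, 5.48 and 4.33 FPKM in Ctrl and 17.4, 17.8 and 18.9 FPKM in IR. In Ab_IR they read 3.53, 3.41 and 3.35 FPKM, and in L_IR 1.83, 2.07 and 1.92 FPKM. No pair of groups overlapped, and the order was IR, Ctrl, Ab_IR, L_IR. IR exceeded Ctrl by 1.68 on the log2 scale (SE 0.0884, adjusted p 5.03e-05), a ratio of means of 3.65, and by 1.69 without Ctrl replicate 1. Against IR, Cxcr2 fell by 2.10 on the log2 scale in Ab_IR (adjusted p 8.87e-08) and fell by 2.69 in L_IR (adjusted p 5.87e-08), and with the Nppa term the values were -2.13 and -2.72. The Cxcr2 calls of IR against Ctrl, Ab_IR against IR and L_IR against IR held under each alternative that tested the gene.

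Neutrophil markers moved with Cxcr2. The summed FPKM of 12 such markers was 3111 to 4627 in Ctrl, 8146 to 8582 in IR, 4134 to 4353 in Ab_IR and 1527 to 1613 in L_IR. No marker of the list was under 1 FPKM in all libraries. In IR against Ctrl 5 of the 12 were called higher and 1 lower, in Ab_IR against IR 1 higher and 6 lower, and in L_IR against IR 10 lower. The list did not follow Cxcr2 everywhere: its sums overlapped between Ctrl and Ab_IR, where Cxcr2 did not overlap, and the mature neutrophil gene Retnlg was lower in IR (52.6 to 53.4 FPKM) than in Ctrl (101.5 to 163.6 FPKM). The part of these markers in the Cxcr2 result was not tested.

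Within a library the ratio of Cxcr2 to Cxcr4 FPKM does not depend on how libraries were scaled to each other. It was 0.0434 to 0.0584 in Ctrl, 0.330 to 0.368 in IR, 0.0325 to 0.0343 in Ab_IR and 0.0238 to 0.0268 in L_IR. The ratio of Cx3cr1 to Cxcr2 ran the other way, at 0.434 to 0.702 in Ctrl, 0.0451 to 0.0482 in IR, 0.841 to 0.977 in Ab_IR and 1.96 to 2.40 in L_IR. Neither ratio overlapped between any groups. Both were chosen after the values had been seen and carry no test.

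**Figure D3:**
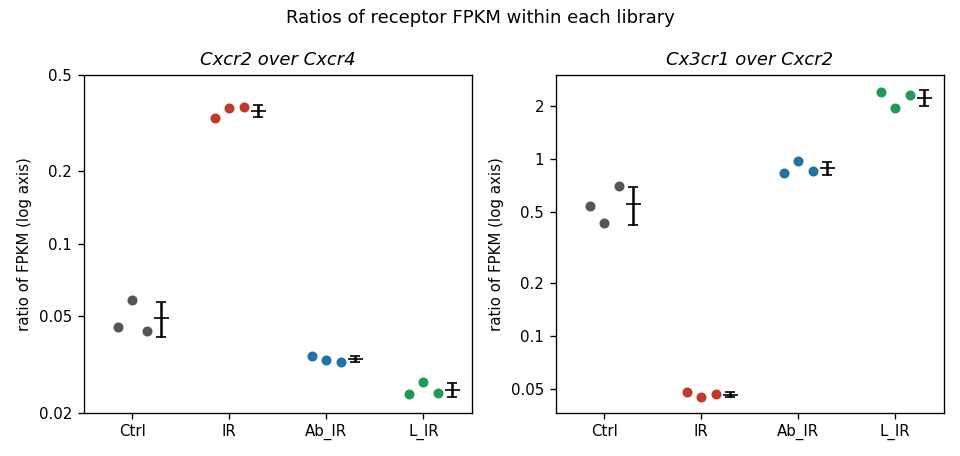
Ratio of FPKM within each library (vertical axes, logarithmic) of Cxcr2 over Cxcr4 and of Cx3cr1 over Cxcr2; coloured points are libraries and black marks the mean ± SD of 3. IR stands alone, at 0.330 to 0.368 in the first ratio and 0.0451 to 0.0482 in the second, and L_IR lies at the opposite end of both.

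Cx3cr1 (chr9:119901616-120069879, minus strand) encodes the fractalkine receptor of monocytes and tissue macrophages. Ctrl libraries read 2.71, 2.38 and 3.04 FPKM, IR libraries 0.84, 0.80 and 0.88 FPKM. Ab_IR read 2.97, 3.33 and 2.88 FPKM, overlapping with Ctrl, and L_IR read 4.39, 4.05 and 4.45 FPKM, above all others. In IR the gene fell by 1.01 on the log2 scale (SE 0.0955), a ratio of means of 0.310, and the value was short of the threshold without Ctrl replicate 3 (-0.94) or IR replicate 2 (-0.99), with quantile normalization (-0.83) and with median ratio scaling (-0.96). With a pseudocount of 0.1 the change was -1.57, since the gene is low. As no IR library reached 1 FPKM, the gene passed the filter through the other groups alone, and its calls in comparisons with IR are a description. With no filter its adjusted p by limma was 0.00348 for IR against Ctrl (range over the alternatives 1.02e-06 to 0.00457). Against IR, Cx3cr1 was higher by 1.14 in Ab_IR (adjusted p 8.29e-05 with no filter) and by 1.52 in L_IR (1.33e-05 with no filter). The Ab_IR value was 0.98 under quantile normalization, short of the threshold.

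Ccr2 (chr9:124101950-124113557, plus strand), the receptor that monocytes need to leave the marrow, moved less. It read 15.6, 17.1 and 13.8 FPKM in Ctrl, 13.2, 13.5 and 13.2 FPKM in IR, 18.3, 16.7 and 17.9 FPKM in Ab_IR and 18.2, 20.1 and 20.3 FPKM in L_IR. IR was the lowest group and did not overlap with the others, but the difference from Ctrl was -0.20 (95% interval -0.41 to 0.005, adjusted p 0.105), and -0.28 (adjusted p 0.0287, within a range of 0.0287 to 0.246 over the alternatives) without Ctrl replicate 3, and a joint fit of all 12 libraries gave an adjusted p of 0.0374. Against IR, Ccr2 was higher by 0.38 in Ab_IR (adjusted p 1.94e-04) and by 0.52 in L_IR (adjusted p 5.75e-05), below the fold threshold in both.

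Macrophage and monocyte markers lay beside these values as follows. The 12 macrophage markers summed to 50.2 to 60.1 FPKM in Ctrl, 42.1 to 49.4 in IR, 59.8 to 65.9 in Ab_IR and 57.1 to 66.5 in L_IR. Of 8 tested, 1 was called higher and 1 lower in IR, the latter being Adgre1, which encodes F4/80. Marco stayed at 0 in Ctrl and at no more than 0.31 FPKM elsewhere. The 12 monocyte markers summed to 753 to 818 FPKM in Ctrl, 622 to 634 in IR, 733 to 786 in Ab_IR and 575 to 597 in L_IR. Lyz2, a lysozyme gene of myeloid cells, made up much of that sum, at 394 to 400 FPKM in IR and 261 to 272 in L_IR. Of 11 monocyte markers tested, 2 were called higher and 4 lower in IR against Ctrl, 4 higher and 1 lower in Ab_IR against IR, and 3 higher and 1 lower in L_IR against IR. Csf1r, the receptor for macrophage colony-stimulating factor, read 15.9 to 17.9 FPKM in Ctrl, at most 8.4 in IR, 19.6 to 20.4 in Ab_IR and 20.3 to 20.7 in L_IR. The 10 T and NK cell markers summed to 181 to 295 FPKM in Ctrl, 234 to 238 in IR, 297 to 305 in Ab_IR and 270 to 276 in L_IR. Of these 10, 0 were called in IR against Ctrl. Trac, a T cell receptor gene among them, read 4.34 to 6.04, 2.05 to 2.72, 5.90 to 7.11 and 9.69 to 10.7 FPKM in the same order, whereas Nkg7 and Ncr1 overlapped between IR and Ctrl. The part of these lists in the Cx3cr1 and Ccr2 results was not tested.

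Of 19 other chemokine receptor genes, 7 passed the filter in IR against Ctrl, with 2 called higher, 1 lower and a median log2 fold change of -0.22. Ccr1, a receptor of myeloid cells and also 1 of the monocyte markers, rose from 6.70 to 17.0 FPKM on average (log2 fold change 1.23, adjusted p 4.08e-04). Ccr10 went to 3.99 FPKM on average (1.34), a description since it passed the filter through IR. Ackr1, the atypical chemokine receptor of erythroid and endothelial cells, went from 3.43 to 0.657 FPKM (-1.39), a description since no IR library reached 1 FPKM and the gene passed the filter through the other groups. In Ab_IR against IR, calls went upward for 3 of 8 and downward for 2, and in L_IR against IR 1 of 9 in each direction. Ccr1 fell by 1.21 in Ab_IR and fell by 1.91 in L_IR, and Ccr10 fell by 1.04 in Ab_IR. Ackr1 was higher by 1.41 and 1.16. Ccr3, the eotaxin receptor of eosinophils, was called higher in Ab_IR but passed the filter through that group alone, so its call is a description. Ccr1 thus had its highest group mean in IR and its lowest in L_IR, as Cxcr2 did.

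Itga4 (chr2:79255426-79333123, plus strand) encodes the α4 chain of VLA-4. Its libraries read 15.2, 12.1 and 11.7 FPKM in Ctrl, 10.94 to 11.16 FPKM in IR, 11.2, 10.3 and 10.3 FPKM in Ab_IR and 13.6, 13.7 and 14.1 FPKM in L_IR. The highest value was that of Ctrl replicate 1. IR lay below Ctrl by -0.21 (95% interval -0.46 to 0.03, adjusted p 0.144), and by -0.10 without that library, and with all libraries fitted jointly the adjusted p was 0.0453 (range over the alternatives 0.0453 to 0.290). L_IR was higher than IR by 0.30 (adjusted p 1.09e-04), which became -0.03 (adjusted p 0.775) with the Nppa term, whereas Ab_IR against IR gave -0.05 (95% interval -0.16 to 0.05, adjusted p 0.322) and -0.38 with that term (adjusted p 0.00121, range over the alternatives 0.00121 to 0.595).

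Itgb1 (chr8:128685654-128733200, plus strand), the shared β1 chain, read 69.8, 67.6 and 62.5 FPKM in Ctrl and 53.8, 55.6 and 55.3 FPKM in IR. Ab_IR read 62.2, 59.9 and 61.7 FPKM and L_IR 61.6, 60.2 and 59.3 FPKM. IR was the lowest group and Ctrl the highest, without overlap. IR was lower than Ctrl by -0.27 (SE 0.0638, adjusted p 0.0148), with an adjusted p of 0.0757, 0.0625 and 0.0655 without IR replicate 1, 2 or 3, the range over the alternatives being 4.54e-04 to 0.0757. Against IR it was higher by 0.16 in Ab_IR (adjusted p 0.00426) and by 0.13 in L_IR (adjusted p 0.00301), and by 0.06 and 0.04 with the Nppa term, where neither passed (adjusted p 0.480 and 0.673). The ratio of Itga4 to Itgb1 stayed between 0.166 and 0.238 in all libraries.

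Among 24 further integrin genes, 12 passed the filter in IR against Ctrl, 0 were called higher and 2 lower by limma, and by adjusted p alone 4 were higher and 6 lower. The called pair were Itga2b, the platelet integrin αIIb chain, from 17.1 to 5.32 FPKM (-1.52, adjusted p 1.92e-05), and Itgax, the CD11c chain, from 3.45 to 1.16 FPKM (-1.04, adjusted p 8.48e-04). Itgb7, which pairs with α4 as an alternative to β1, went from 28.7 ± 0.413 to 14.2 ± 0.561 FPKM, which is -0.97 on the log2 scale (adjusted p 7.36e-05), just short of the threshold. Against IR it rose by 1.35 in Ab_IR (37.6 ± 1.94 FPKM, adjusted p 7.92e-07) and by 1.42 in L_IR (39.7 ± 2.21 FPKM, adjusted p 7.66e-07). The 2 partners of α4 therefore differed in size of change in IR, -0.97 for Itgb7 and -0.27 for Itgb1, a difference that was not itself tested.

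Some β2 integrin chains of leukocytes moved upward. Itgb2, the shared β2 chain, was higher in IR, at 158.7 ± 2.17 against 92.5 ± 5.70 FPKM in Ctrl (0.77, adjusted p 3.19e-04), and so were its partners Itgam (0.67, adjusted p 4.96e-04) and Itgal (0.34, adjusted p 0.0126), whereas Itgax, another partner, was lower as given above. Against IR, Itgam fell by 1.06 in L_IR (adjusted p 3.03e-06) and was lower by -0.72 in Ab_IR, and Itgb2 was lower by -0.86 and -0.64. Itgal differed from them in L_IR, where it was higher than IR by 0.25 (adjusted p 9.78e-05). The sums of the neutrophil markers given above were, like Itgb2 and Itgam, highest in IR and lowest in L_IR. The part of these markers in the Itgb2 and Itgam results was not tested. Itga2b and Itgb3, the platelet integrin chains, rose in Ab_IR against IR by 1.80 and 1.53.

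Selplg (chr5:113818536-113832644, minus strand) encodes PSGL-1, a ligand of selectins. It read 40.2, 36.6 and 38.7 FPKM in Ctrl, 29.6, 27.7 and 28.7 FPKM in IR, 42.6, 44.9 and 40.3 FPKM in Ab_IR and 40.1, 39.1 and 39.8 FPKM in L_IR. IR overlapped with no other group, while L_IR overlapped with Ctrl. IR was lower than Ctrl by -0.41 (SE 0.0627, adjusted p 0.00286). Ab_IR and L_IR were higher than IR by 0.56 (adjusted p 4.44e-05) and 0.46 (adjusted p 1.61e-05), and by 0.46 and 0.36 with the Nppa term. None of these passed the fold threshold.

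Cd44 (chr2:102811141-102901665, minus strand), the hyaluronan receptor, differed little between groups. Its libraries read 34.6, 36.1 and 33.7 FPKM in Ctrl, 32.6, 31.6 and 32.04 FPKM in IR, 35.9, 32.4 and 34.0 FPKM in Ab_IR and 32.5, 32.3 and 32.4 FPKM in L_IR. The log2 differences were -0.11 for IR against Ctrl (95% interval -0.25 to 0.02, adjusted p 0.152), 0.08 for Ab_IR against IR (-0.02 to 0.19, adjusted p 0.130) and 0.01 for L_IR against IR (-0.04 to 0.07, adjusted p 0.645). The adjusted p passed for IR against Ctrl under quantile normalization (-0.18, adjusted p 0.0490) and with the Nppa term (0.0495, range over the alternatives 0.0490 to 0.401), for L_IR against IR under quantile normalization (0.0311, range 0.0311 to 0.927) and for Ab_IR against IR without Ab_IR replicate 2 (0.0373, range 0.0373 to 0.392). The intervals leave room for changes of up to 0.25 on the log2 scale.

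Of 11 genes that glycosylate PSGL-1 and CD44 or link them to actin, 0 were called higher and 1 lower in IR by limma, and by adjusted p alone 3 were higher and 4 lower, with a median of 0.05. The called gene was St3gal6, a sialyltransferase that makes selectin ligands, which fell from 6.10 to 1.31 FPKM (-1.61, adjusted p 7.03e-05). It rose by 1.19 in Ab_IR against IR (adjusted p 2.23e-06). In L_IR it was listed at 2.90 to 3.00 FPKM, between IR and Ctrl.

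S1pr1 (chr3:115710433-115715072, minus strand) was near the filter. Its libraries read 0.65, 1.19 and 1.28 FPKM in Ctrl, 0.77, 0.78 and 0.63 FPKM in IR, 1.54, 1.02 and 0.92 FPKM in Ab_IR and 1.64, 1.37 and 1.76 FPKM in L_IR. It did not pass the filter in IR against Ctrl, where Ctrl replicate 1 lay within the IR range and the other Ctrl libraries above it, nor in Ab_IR against IR. L_IR, without overlap, was higher than IR by 0.58 on the log2 scale, but the gene passed the filter there through L_IR alone, so that value is a description (adjusted p 0.00309 with no filter). The 11 B cell markers summed to 122 to 126 FPKM in Ctrl, 112 to 113 in IR, 163 to 180 in Ab_IR and 205 to 209 in L_IR. The 9 plasma cell markers summed to 677 to 784, 1070 to 1095, 1146 to 1231 and 1553 to 1578 FPKM in the same order. Both were highest in L_IR, but the latter were lowest in Ctrl. Their part in the S1pr1 values was not tested.

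Other genes of the sphingosine-1-phosphate pathway were tested as well. Of 16 genes 13 passed the filter in IR against Ctrl, 0 were called higher and 4 lower by limma, and by adjusted p alone 1 was higher and 7 lower, with a median of -0.26. Mfsd2b, the sphingosine-1-phosphate exporter of red cells and platelets, fell from 15.7 to 2.05 FPKM (-2.45, adjusted p 2.35e-05), and Sphk1, a kinase that makes the lipid, from 8.57 to 2.18 FPKM (-1.56, adjusted p 6.49e-04). Both rose against IR, Mfsd2b by 2.30 in Ab_IR and 1.81 in L_IR and Sphk1 by 2.03 and 1.61. The 11 erythroid markers moved alongside, with sums of 4029 to 4589 FPKM in Ctrl, 635 to 648 in IR, 3880 to 4067 in Ab_IR and 1999 to 2059 in L_IR, and their part in the Mfsd2b result was not tested. Klf2, a transcription factor that drives S1pr1 in lymphocytes, fell in L_IR, to 25.9 FPKM against 69.3 in IR (-1.39, adjusted p 3.55e-06) and 64.9 in Ab_IR. S1pr1 had its highest mean in L_IR, where Klf2 had its lowest.

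Ligands of these receptors were measured in the same sorted cells. Of 21 ligand genes 10 passed the filter in IR against Ctrl, 0 were called higher and 4 lower by limma, 2 were higher and 5 lower by adjusted p alone, and the median was -0.61. In Ab_IR against IR 6 of 12 were called higher, and in L_IR against IR 4 of 12 rose and 1 fell. Cxcl12, the ligand of CXCR4, read 4.10, 3.78 and 3.91 FPKM in Ctrl and 0.38, 0.39 and 0.35 FPKM in IR. It read 2.37, 2.61 and 2.78 FPKM in Ab_IR and 2.11, 1.91 and 1.91 FPKM in L_IR. IR was lower than Ctrl by -1.84, and Ab_IR and L_IR were higher than IR by 1.38 and 1.12. The gene passed the filter outside IR alone, so its calls, which are among the counts of ligand genes, are a description, as are those of Ccl7 in Ab_IR and L_IR against IR. Cxcl12 is a stromal gene and itself 1 of 11 bone and stroma markers. These summed to 163 to 192 FPKM in Ctrl, 29.6 to 30.7 in IR, 66.1 to 70.8 in Ab_IR and 67.2 to 69.4 in L_IR. Col1a1 made up much of the Ctrl sum, at 79.3 to 100.2 FPKM. Spp1, also on the list, went the other way, at 7.27 to 10.2 FPKM in Ctrl and 14.6 to 16.6 in IR. The part of the other markers in the Cxcl12 result was not tested.

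The ligands of VLA-4 split. Vcam1, the vascular adhesion molecule, fell in IR from 19.9 ± 0.474 to 7.21 ± 0.159 FPKM (-1.35, adjusted p 2.70e-05), and rose in Ab_IR against IR by 1.05 (adjusted p 2.00e-06). Fn1, fibronectin, was higher in IR, at 23.8 ± 0.352 against 15.4 ± 2.74 FPKM (0.61, adjusted p 0.00869), as was Spp1, osteopontin (0.69, adjusted p 0.00708). Fn1 fell by 1.02 in L_IR against IR (adjusted p 6.61e-07) and was lower by -0.95 in Ab_IR.

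The platelet chemokines Ppbp and Pf4 were also lowest in IR. Ppbp, whose processed product binds CXCR2, read 10.1 to 15.3 FPKM in Ctrl, 1.70 to 1.84 in IR, 63.9 to 67.5 in Ab_IR and 32.5 to 37.7 in L_IR. Pf4 read 18.6 to 27.1, 3.41 to 4.89, 36.5 to 39.0 and 23.3 to 29.1 FPKM in the same order. Ppbp was thus lowest in the group in which Cxcr2 was highest. Megakaryocyte and platelet markers, 10 genes, summed to 60.0 to 74.3, 14.1 to 15.7, 152 to 156 and 93.6 to 100.03 FPKM. Ppbp and Pf4 are themselves on this list and make up a large part of the sums, which are therefore not independent of them. The part of the other markers in the Ppbp and Pf4 results was not tested. Cx3cl1, the CX3CR1 ligand, stayed at or under 0.15 FPKM, and Sele at or under 0.63 FPKM. Ccl2, the CCR2 ligand, read 3.18 ± 0.814 FPKM in Ctrl and 2.25 ± 0.564 in IR (-0.36, adjusted p 0.180), and was higher than IR by 0.84 in Ab_IR and 0.63 in L_IR. Selp, P-selectin, did not pass the test in IR against Ctrl (0.15, adjusted p 0.496).

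**Figure D4:**
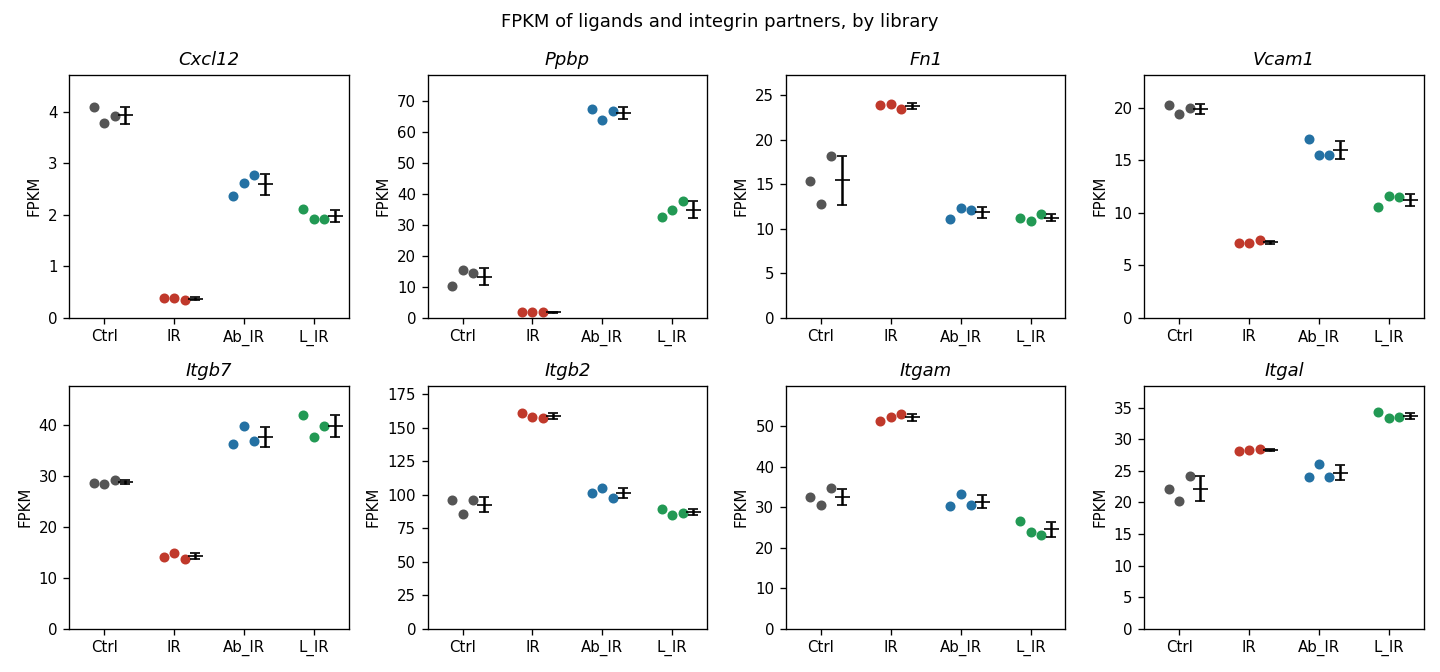
FPKM (vertical axes, each from 0) of the ligands Cxcl12, Ppbp, Fn1 and Vcam1, and the integrin chains Itgb7, Itgb2, Itgam and Itgal, by library; coloured points are libraries and black marks the mean ± SD of 3. Cxcl12, Ppbp, Vcam1 and Itgb7 are lowest in IR, and Fn1, Itgb2 and Itgam highest.

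Proteases that cut retention ligands and receptors were listed together with 3 protease inhibitors (Timp1, Timp2 and Serpina3g). Of these 12 genes 11 passed the filter in IR against Ctrl, with 2 called higher and 2 lower. The neutrophil proteases Mmp8 (from 9.95 to 36.9 FPKM, log2 fold change 1.81) and Mmp9 (from 13.3 to 31.4 FPKM, 1.18) rose, while Dpp4, a peptidase that inactivates CXCL12, went from 4.98 to 0.950 FPKM (-1.61) and Mmp14 from 4.17 to 0.970 FPKM (-1.39). Against IR the directions turned: Mmp8 changed by -2.82 in Ab_IR and -3.6 in L_IR and Mmp9 by -1.91 and -3.39, whereas Dpp4 was higher by 1.33 and 1.40 and Mmp14 by 1.39 and 1.36. Dpp4 and Mmp14 passed the filter only with the libraries outside IR, where they are high, so their values are a description. Mmp8 is also 1 of the neutrophil markers.

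Downstream of chemokine receptors, 27 of 28 signalling genes passed the filter in IR against Ctrl, 1 was called higher and 3 lower, and by adjusted p alone 11 were higher and 7 lower, with a median of 0.22. Pik3r5, a regulatory subunit of the PI3Kγ that chemokine receptors activate, rose from 6.66 to 18.0 FPKM (1.32, adjusted p 9.67e-05) and fell by 1.26 in Ab_IR against IR. Rgs1, a regulator that damps G-protein signals, fell from 26.5 to 6.29 FPKM (-1.91, adjusted p 3.79e-05), and Rgs10 changed by -1.58. Both rose against IR, Rgs1 by 1.42 in Ab_IR and 1.37 in L_IR and Rgs10 by 1.65 and 1.22. Of 20 genes that regulate integrin activation 18 passed, 1 called in each direction, namely Actn1, an actin crosslinker, higher by 1.02, and Parvb, an adaptor of integrin-linked kinase, lower by -1.92. Parvb rose by 2.37 and 1.94 in Ab_IR and L_IR, and Actn1 fell by 1.23 in Ab_IR.

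The comparisons of Ab_IR and of L_IR with IR share the IR libraries. Of 8 receptors tested in Ab_IR against IR, 2 were called higher (Cxcr4, Cx3cr1) and 1 lower (Cxcr2), where 7.57% of genes were called (5.11% higher and 2.46% lower). By adjusted p alone, 5 were higher and 1 lower, against 68.7% of genes (39.4% higher and 29.4% lower), and 6 of the 8 had no overlap, against 73.0%. Of 9 tested in L_IR against IR, 1 was called in each direction (Cx3cr1 higher, Cxcr2 lower), where 6.22% of genes were called (4.09% higher and 2.13% lower). By adjusted p alone 7 were higher and 1 lower, against 66.8% of genes (40.8% higher and 26.0% lower), and 8 did not overlap, against 71.2%. Cx3cr1 in both comparisons and S1pr1 in the latter passed the filter through the group in which they were higher, so their part of these counts is a description. The median log2 fold changes were 0.27 and 0.46, beside 0.06 and 0.07 over all genes.

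Ab_IR was compared with L_IR directly to ask where the 2 labels differ. None of the 9 receptors was called by limma (0 of 9, against 0.533% of genes). By adjusted p alone 2 were higher and 2 lower, against 38.0% of genes (18.2% higher and 19.8% lower). Ccr2 did not pass by adjusted p (0.0831), with an unadjusted limma p of 0.0371. The libraries of 5 of the 9 receptors did not overlap, against 51.9% of genes. Cxcr2 was higher in Ab_IR by 0.59 (SE 0.0543, adjusted p 3.27e-04), a ratio of means of 1.77, and Cxcr4 by 0.40 (adjusted p 1.96e-04). Cx3cr1 was lower by -0.38 (adjusted p 0.00303) and Itga4 by -0.35 (adjusted p 0.00135). Ccr2, Itgb1, Selplg, Cd44 and S1pr1 differed by -0.27 to 0.10 without passing, though with 1 library left out S1pr1 (-0.39, adjusted p 0.0203 without Ab_IR replicate 1, range over the alternatives 0.0203 to 0.273), Selplg (0.0425 without Ab_IR replicate 3, range 0.0425 to 0.533) and Ccr2 (0.0438 without L_IR replicate 1, range 0.0438 to 0.228) passed. The neutrophil markers went with Cxcr2, 8 of 12 being called higher in Ab_IR. Among the other genes of the lists, Klf2 was higher in Ab_IR by 1.29 and Mmp9 by 1.48.

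Against unirradiated Ctrl, 0 of the 9 receptors was called in Ab_IR by limma, where 0.923% of genes were called. By adjusted p alone 0 of the 9 passed, against 2.10% of genes. Cxcr2 and Itga4 had an unadjusted limma p of 0.00322 and 0.0465. Under some alternatives the adjusted p passed for Itga4 (range 6.66e-05 to 0.513), Itgb1 (0.0113 to 0.632) and S1pr1 (0.0485 to 0.930). The libraries of 4 of the 9 did not overlap, against 33.5% of genes. Cxcr4 differed by 0.03 (95% interval -0.16 to 0.23), Cxcr2 by -0.42 (-0.64 to -0.20, adjusted p 0.0905, and 0.00400 in the joint fit and 0.00327 with the Nppa term, within a range of 0.00327 to 0.376) and Cx3cr1 by 0.13 (-0.11 to 0.37). In L_IR, Cxcr2 was called lower, by -1.01 (adjusted p 0.00162), where 2.65% of genes were called (0.620% lower). The libraries of 7 of the 9 did not overlap with Ctrl, against 36.1% of genes. That call was lost without Ctrl replicate 2 (-0.94) or L_IR replicate 1 (-0.98). By adjusted p alone 3 receptors passed, against 8.84% of genes (4.76% higher and 4.08% lower), the other two being Cxcr4, lower by -0.37 (adjusted p 0.0347), and Cx3cr1, higher by 0.52 (adjusted p 0.0198). Without L_IR replicate 1, 2 or 3 their adjusted p rose to between 0.0799 and 0.169, within ranges over all alternatives of 4.18e-05 to 0.169 and 7.12e-04 to 0.113. Cxcr4 also lost it without Ctrl replicate 3 (0.0700), and with no filter on low values the adjusted p was 0.0665 for Cxcr4 and 0.0640 for Cx3cr1. Receptors that did not pass in L_IR passed by adjusted p under some alternatives. These were Ccr2 (range 0.0103 to 0.302), Itga4 (0.0379 to 0.911), Itgb1 (0.00729 to 0.555) and S1pr1 (0.00416 to 0.491). Ctrl is shared by both comparisons, and its replicates 2 and 3 lie on the other side of the Nppa split from all Ab_IR and L_IR libraries.

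Several marker lists moved beside Cxcr4. The 17 HSC-enriched genes summed to 38.4 to 43.1 FPKM in Ctrl, 17.5 to 18.3 in IR, 38.4 to 40.2 in Ab_IR and 35.7 to 36.8 in L_IR. The sums of Ab_IR and L_IR lay close, while Cxcr4 was 1.32 times as high in Ab_IR. Gata2, a transcription factor that is on both the HSC and the mast cell list, accounted for 15.5 to 17.1 FPKM of the Ctrl sum. The 8 eosinophil markers summed to 4897 to 6508 FPKM in Ctrl, 416 to 425 in IR, 6991 to 7129 in Ab_IR and 2950 to 2983 in L_IR, and 8 of 8 were called lower in IR against Ctrl, of which Il5ra passed the filter through Ctrl alone. The 7 mast cell and basophil markers summed to 598 to 680, 211 to 219, 793 to 844 and 494 to 517 FPKM in the same order, with 6 of 6 tested called lower in IR. These sums, like that of the erythroid markers given above, were lowest in IR and lay between IR and Ctrl in L_IR, as Cxcr4 did. The part of these genes in the Cxcr4 result was not tested.

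**Figure D5:**
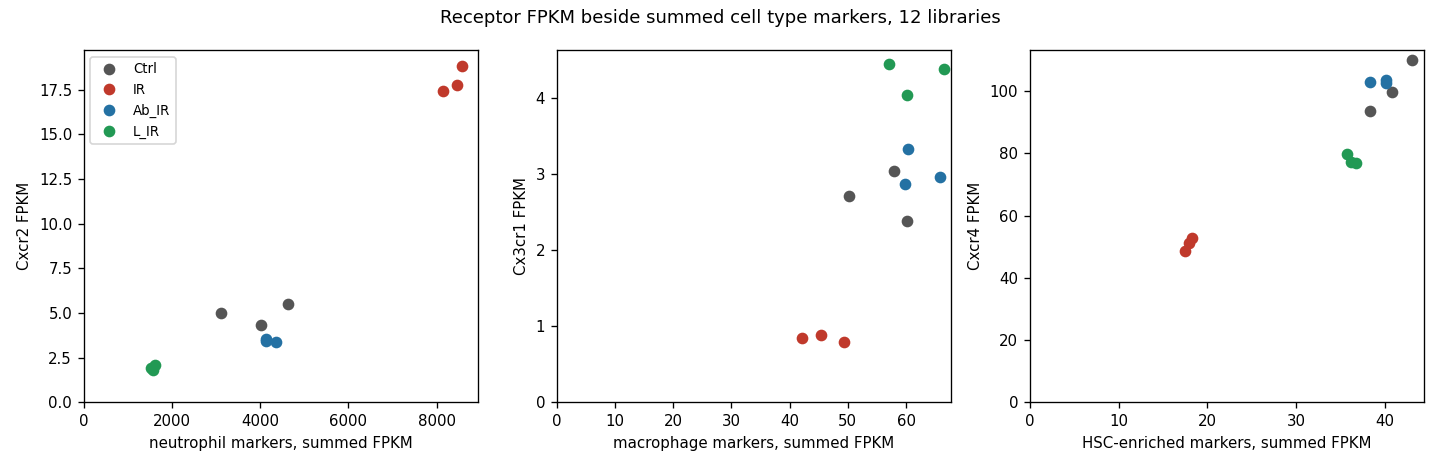
FPKM of Cxcr2, Cx3cr1 and Cxcr4 (vertical axes) against the summed FPKM of neutrophil, macrophage and HSC-enriched markers (horizontal axes); each point is 1 of 12 libraries, coloured by group. IR forms a cluster of its own in each panel, at 8146 to 8582, 42.1 to 49.4 and 17.5 to 18.3 FPKM of markers.

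The genes whose profile over the 12 libraries was most like each receptor's were sought by Pearson's r of log2(FPKM + 1) among about 4550 candidates. The libraries fall into their groups, so these values describe group patterns. For Cxcr2 they were Chil3 (r = 0.993), Abhd5 (0.993) and F10 (0.993), and for Cxcr4 Hebp1 (0.991), Ubac1 (0.990) and Pigq (0.988). For Cx3cr1 they were Mef2d (0.985), Anxa6 (0.982) and Stat5a (0.981), for Selplg Smap2 (0.984), Psap (0.983) and Il17ra (0.983), and for Itgb1 Sh3bgrl (0.984), Srsf6 (0.974) and Hnrnph1 (0.971). Ccr2 came closest to Gbp2 (0.973), Ifit2 (0.929) and Bhlhe40 (0.925), of which Gbp2 and Ifit2 are interferon-induced genes. Itga4, Cd44 and S1pr1 had looser neighbours, Ccdc50 (0.950), Wsb1 (0.932) and Hsd17b4 (0.910) being the nearest.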

How the data were processed

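Total RNA of sorted cells was made into stranded mRNA libraries. The submitters' notes name fastp, HISAT2 and StringTie with GRCm38 (mm10), whereas the study's methods name RSEM for quantification. The deposited tables give a gene name and a value with 2 decimals per library. The unit is not named in them and was read as FPKM, computed by the authors, since library sums of 344338 to 405123 differ from the fixed sum of CPM or TPM and values times exon length (kb, GENCODE M21) summed to 913838 to 945611. Low values showed no whole-read steps, so depth is unknown.

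The authors' count test needs counts. limma 3.58.1 (R 4.3.3; lmFit, eBayes, trend) was therefore fitted to log2(FPKM + 1) of each pair of groups over all genes with at least 1 FPKM in 3 fitted libraries. Libraries were grouped by their titles. The 9 genes were named in full, and from each pathway list up to 2 called genes per direction with non-overlapping groups, besides ligands and partner chains fixed by name and the 3 nearest profiles among genes whose mean reached 10 FPKM. A few genes of the lists are not reported here. Members, lists and alternatives were chosen with earlier results of these data known. Retnlg, Adgre1, Marco, Csf1r, Nppa and other markers were named after their values were seen. Positions are GENCODE M21. In simulated data of 12067 to 12251 genes, 89.5% to 98.5% of 200 genes changed by 1.5 (log2) were called, and at most 4 others. Alternatives were the pseudocount, the filter, the fold threshold, scaling, trend, a joint fit of the 12 libraries, a replicate block, each library left out and, added later, the Nppa split as a term. Figures were drawn with matplotlib 3.10.9.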

Additional observations from a re-analysis of the deposited data

How the results depend on the processing

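Of 52 gene values under 818 alternatives in all, 791 kept their direction and their side of the call, 11 lost the call, 5 gained it and 11 reversed. Most of the 52 values were not called to begin with and had no call to lose. The 11 losses all fell on called values of Cxcr4, Cxcr2 and Cx3cr1. A change in adjusted p alone was not counted: Itgb1 in Ab_IR against IR went from 0.00426 to 0.480 with the Nppa term and is among the 791. The number of receptors called moved as follows. With no fold change threshold it was 5 for IR against Ctrl (2 as reported), 6 for Ab_IR against IR (3), 8 for L_IR against IR (2), 4 for Ab_IR against L_IR (0) and 3 for L_IR against Ctrl (1). With a mean of at least 10 FPKM it was 1 for IR against Ctrl (Cxcr2) and 2 for Ab_IR against IR, since Cx3cr1 is then not tested. By the same rule it was 0 for L_IR against IR and 0 for L_IR against Ctrl, where Cxcr2 is not tested either. Median ratio scaling gave 1 for IR against Ctrl and 2 for Ab_IR against IR, and quantile normalization 1 for Ab_IR against IR. The Nppa term gave 2 for Ab_IR against IR and 3 for L_IR against IR, and a pseudocount of 0.1 also gave 3 for the latter. Leaving out 1 library gave 1 to 3 for IR against Ctrl, 2 to 3 for Ab_IR against IR and 0 to 1 for L_IR against Ctrl. Ab_IR against Ctrl stayed at 0 under all alternatives run.

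Reversed values were small. With the Nppa split as a term, Itga4 read -0.027 in L_IR against IR and -0.13 in L_IR against Ctrl, Selplg -0.019 in L_IR against Ctrl and Cxcr4 -0.092 in Ab_IR against Ctrl. Quantile normalization gave Cxcr4 -0.14 in Ab_IR against Ctrl and Itgb1 -0.038 in Ab_IR against L_IR, and median ratio scaling gave Cd44 -0.031 in L_IR against IR. Leaving out 1 library, Ab_IR against Ctrl ranged from -0.021 to 0.093 for Cxcr4, from -0.067 to 0.0062 for Cd44 and from -0.060 to 0.17 for S1pr1. S1pr1 in L_IR against IR passed the fold threshold with a pseudocount of 0.1 (1.03) and with the Nppa term (1.02). The cause of these shifts was not tested.

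The replicate numbers did not pair the libraries: deviations of same-numbered libraries correlated at -0.27 to 0.21, and not every pair exceeded 0.1. With the replicate number as a block the counts of called receptors were 2, 3 and 2 for IR against Ctrl, Ab_IR against IR and L_IR against IR, as without it, and by adjusted p alone Itgb1 in IR against Ctrl and Cxcr4 and Cx3cr1 in L_IR against Ctrl no longer passed. The unknown depth leaves S1pr1 and Cx3cr1, near 1 FPKM in IR, the least certain.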
